A study of Mus musculus with 14 samples.

Results

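Of 86652 CTCF binding sites in the series, 642 (0.741%) carried a peak in all 4 libraries of embryonic stem cells (day 0) and in none of the 4 libraries of embryoid bodies (day 4), so they lost their peak in both genotypes. A site was the merged interval of CTCF peaks that overlapped by at least 1 bp across the 8 peak lists. Because the calls of both days chose these sites, their presence at day 0, their absence at day 4 and their day 0 strength are given as description, with no test. CTCF ChIP-seq had been carried out in E14Tg2A mouse embryonic stem cells with wild-type CTCF (WT) or with CTCF whose lysine 20 was changed to arginine by CRISPR/Cas9 (K20R), at day 0 and at day 4, with 2 libraries for each genotype and day. At day 0 cells grew on inactivated feeder fibroblasts with LIF and 2i, which hold them in the naive state, and at day 4 they were embryoid bodies, aggregates that differentiate in hanging drops of medium with serum and without LIF. The sources used here do not say whether feeder cells were removed before ChIP, nor how many clones stood for each genotype, so genotype and clone cannot be told apart. The histone mark H3K27ac, found at promoters and enhancers in use, had 1 library for WT and 1 for K20R, both from day 4, so that its overlaps have no replicate check.

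CTCF is a zinc finger protein that binds a long DNA motif and halts the cohesin complex, so that bound sites anchor chromatin loops and the borders of topological domains. Most of its sites are shared by many cell types, while a minority is gained or lost as cells differentiate. The motif can hold CpG dinucleotides, the sequence in which mammalian DNA is methylated, and in the mouse genome copies of short interspersed elements of the B2 class have spread matches to the motif. DNA methylation was not measured in these libraries.

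The sequences below include examples of features that were more frequent at lost sites than at kept sites, which held a peak in all 8 lists. They were read from GRCm38, the assembly also called mm10, and run 5′ to 3′ in the orientation of the motif. Capitals mark the best 18-base match to a CTCF motif matrix learned from the strongest day 0 peaks of kept sites, and bases of a match are counted from 1 at its 5′ end. The first is the consensus of that matrix.
CTCF motif consensus: CGGCCACCAGGGGGCGCC
The next 6 are among the strongest lost sites whose match lay outside repeats and held a CpG at bases 5 and 6. Of the 642 lost sites 30 had this feature, a larger share of such matches than among kept sites.
Exon of Nrp2, chr1:62738401-62738458, plus strand: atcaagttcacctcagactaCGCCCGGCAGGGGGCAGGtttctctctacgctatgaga
Exon of Htra3, chr5:35653044-35653101, plus strand: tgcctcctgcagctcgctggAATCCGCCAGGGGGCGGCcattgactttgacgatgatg
Intron of 1810058I24Rik, chr6:35259116-35259173, plus strand: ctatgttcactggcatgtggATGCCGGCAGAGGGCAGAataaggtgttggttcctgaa
Exonic, nearest start site Cln8, chr8:14894825-14894882, minus strand: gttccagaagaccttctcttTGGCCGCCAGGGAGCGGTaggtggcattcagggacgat
Intronic, nearest start site Onecut1, chr9:74866675-74866732, minus strand: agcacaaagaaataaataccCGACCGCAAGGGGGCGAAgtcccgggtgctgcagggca
Intron of Erg, 800 bp from its start site, chr16:95585765-95585822, plus strand: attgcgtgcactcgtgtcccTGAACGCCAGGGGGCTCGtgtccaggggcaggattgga
The next 2 are the consensus sequences of the largest groups of repeat copies that carried a match, here called repeat families A and B. The reference marks repeats without naming them, so the families were found by sequence alone.
Repeat family A consensus: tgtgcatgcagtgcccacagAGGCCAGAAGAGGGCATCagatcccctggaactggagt
Repeat family B consensus: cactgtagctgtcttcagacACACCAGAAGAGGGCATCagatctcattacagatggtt
The last 7 are among the 150 lost copies of family B. First come 3 of the strongest, 1 of them intergenic and the others intronic, then those within 50 kb of a start site of 4 listed pluripotency genes. A copy nearest to the start site of D930016D06Rik, stronger at day 0 than the Phyhipl copy, is not shown.
Intergenic, nearest start site Gm10704, chr3:88572332-88572389, plus strand: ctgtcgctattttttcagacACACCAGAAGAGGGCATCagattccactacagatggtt
Intronic, nearest start site Cfap157, chr2:32781905-32781962, plus strand: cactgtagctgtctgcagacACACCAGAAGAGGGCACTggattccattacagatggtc
Intronic, nearest start site Phyhipl, chr10:70611642-70611699, minus strand: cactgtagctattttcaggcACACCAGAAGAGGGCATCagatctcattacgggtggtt
47466 bp from Prdm14, chr1:13079683-13079740, minus strand: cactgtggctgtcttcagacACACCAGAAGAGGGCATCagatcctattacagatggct
Intron of Esrrb, chr12:86455793-86455850, plus strand: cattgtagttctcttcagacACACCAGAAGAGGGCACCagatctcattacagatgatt
37848 bp from Sox2, chr3:34688237-34688294, minus strand: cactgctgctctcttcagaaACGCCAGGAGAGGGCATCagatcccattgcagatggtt
34954 bp from Zfp42, chr8:43341896-43341953, plus strand: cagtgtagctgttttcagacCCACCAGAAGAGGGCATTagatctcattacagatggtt

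The lost sites were a small share of the sites that all day 0 libraries shared. Of 43422 sites with a peak in all 4 day 0 lists, 642 (1.48%) had no day 4 peak, 747 had a peak in 1 day 4 list, 2121 in 2, 3472 in 3, and 36440 (83.9%) in all 4. Within WT, 2917 of 50765 sites shared by both day 0 lists (5.75%) had no day 4 peak, and within K20R this held for 4270 of 46924 sites (9.1%). The 642 sites made up 22.01% of the WT losses and 15.0% of the K20R losses. These losses also count sites that the other genotype lacked in a day 0 list, which could not be among the 642. Among the 43422 shared sites, 1573 were lost in K20R only and 97 in WT only, with a peak in both day 4 lists of the other genotype. Leaving out the second WT day 0 library raised the number of lost sites to 1219, and cutting each list to the 41360 peaks of the shortest list lowered it to 361. The 8 lists held between 41360 and 77657 peaks, and the longest was that of the first WT day 0 library, in which 36.5% of summits lay in repeats, against 26.9% to 31.0% in the other 7.

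Fold enrichment, the ratio of reads at a summit to the local background after 1 is added to each, was low at the lost sites. Its median over the 642 sites was 10.1 and 6.05 in the WT day 0 libraries and 6.95 and 6.96 in the K20R day 0 libraries. At the 36440 kept sites, the medians were 25.6 and 15.2 in WT and 27.3 and 26.7 in K20R. As a percentile within its list, the median lost site ranked at 41.0% and 18.3% in WT and at 17.3% and 18% in K20R, while the median kept site ranked at 76.2%, 64.9%, 64.8% and 64.7%. The first WT library stood above the other 3, which were close to each other. The genotype means over library medians were 29.7% ± 16.02 for the 2 WT libraries and 17.6% ± 0.519 for the 2 K20R libraries (± SD), a difference of -12.0 percentile points, given with no test. Without the first WT library, over the 661 sites that were then lost, the difference was -0.0789 points. Just outside the rule, the 747 sites with a peak in 1 day 4 list had median fold enrichments of 10.4, 6.30, 7.55 and 7.54 in the same 4 libraries.

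**Figure D1:**
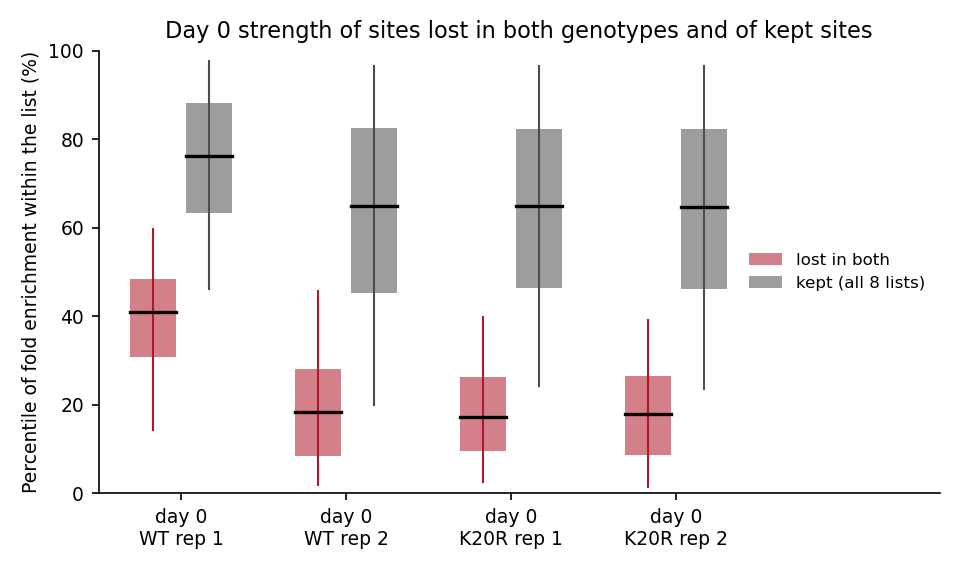
Percentile of fold enrichment (y axis, %) within each day 0 list (x axis) for the 642 sites lost in both genotypes (red) and the 36440 kept sites (grey). Boxes span the middle quartiles, black lines are medians and thin lines reach from the 5th to the 95th percentile. Lost sites lay lower in every library, with medians of 41.0%, 18.3%, 17.3% and 18%.

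The number of reads at a summit was recovered from the fold enrichment and its p-value. The median over the lost sites was 18 and 11 reads in the WT day 0 libraries and 12 and 12 reads in the K20R day 0 libraries. For 625 sites a read number was obtained in all 4 libraries, and the mean over libraries ranged from 7 to 48.75 reads with a median of 13.75. With the background each site had at day 0, the most reads that any day 4 list could have left uncalled was 4 to 8, with a median of 5. At 623 of the 625 sites the lowest day 0 read number was above that limit, and at 588 sites (94.1%) the day 0 mean was at least 2 times the limit. At 98 sites it was at least 4 times the limit. The count of 623 was largely fixed by the rule, which required a peak in all 4 day 0 lists. The lowest -log10 p of a peak was 3.33 to 3.53 in those lists and 3.44 to 3.59 in the day 4 lists. The read limits hold for the summit alone and assume that the local background did not change, and signal below them at day 4 was not detectable at this depth.

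The 10 strongest lost sites were taken by their day 0 strength, so wide gaps to the limit were built into that choice. The strongest lay in an exon of Npat, which encodes an activator of histone genes, at chr9:53570603-53571001, and held 66 and 43 reads in the WT libraries and 48 and 38 reads in the K20R libraries at day 0, where at most 5 could have gone uncalled at day 4. It held no CTCF motif match and overlapped a day 4 H3K27ac peak in K20R and not in WT. The site in an exon of Nrp2, a receptor of semaphorins, held 44, 29, 40 and 32 reads in the same order, and that in an exon of Htra3, a secreted serine protease, held 52, 30, 39 and 34 reads. In an intron of Cacna1a, a calcium channel subunit, the site at chr8:84567474-84567990 held 42 and 21 reads in WT and 47 and 47 reads in K20R. The site in an intron of Ddx58, an RNA sensor of the innate immune response, held 36, 29, 37 and 24 reads. The site in an intron of Nrg2, a ligand of ErbB receptors, held 52, 34, 42 and 38 reads. In these 6 sites every day 0 library was above the day 4 limit by at least 4 times. The other 4 lay in introns of Csgalnact1, 1810058I24Rik and Crocc2 and in an intergenic region 4797 bp from the start site of Gm10704, with mean day 0 read numbers of 27.75 to 34.75. Of the 10 sites, 5 held a motif match. The 3 of these outside repeats (Nrp2, Htra3 and 1810058I24Rik) all held the CpG at bases 5 and 6 shown above, and the other two lay in repeats.

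Lost sites lay in repeats more often than kept sites, a feature that the rule had not used. The summit lay in a repeat at 343 of the 642 lost sites (53.4%, 95% Wilson interval 49.6 to 57.3) and at 24.9% of the kept sites, a difference of 28.5 percentage points (95% Newcombe interval 24.6 to 32.4). With lists of equal length it was 17.99 points (interval 13.04 to 23.1). The share was 38.3% at the 1573 sites lost in K20R only, which is 15.1 points below the lost sites (interval 10.5 to 19.6), and 63.9% at the 97 sites lost in WT only, a difference of -10.5 points whose interval (-20.2 to 0.140) held 0. Because lost sites were weak, shares were also compared within bands of mean day 0 percentile. Below the 20th percentile, 58.7% of 230 lost sites and 29.8% of 238 kept sites lay in repeats, from 20 to 30 56.0% of 248 and 37.0% of 1176, and from 30 to 50 44.2% of 156 and 35.02% of 7185. Each of these 3 differences excluded 0, and the 8 lost sites at or above the 50th percentile held no repeat. All such intervals treat sites as independent and do not cover the spread between libraries.

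**Figure D2:**
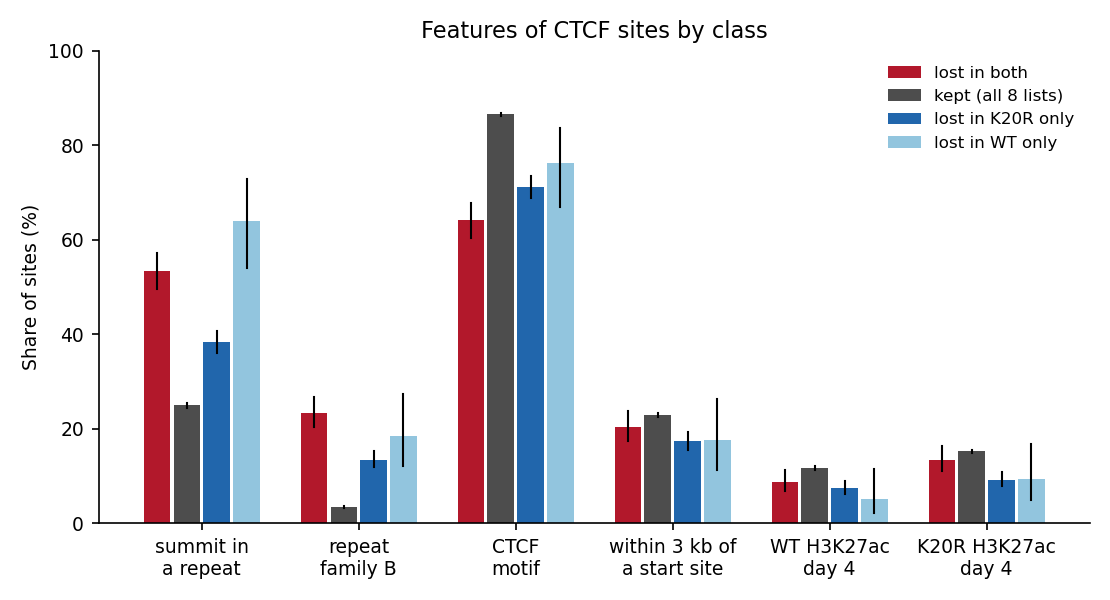
Share of sites (y axis, %) with each feature (x axis) among sites lost in both genotypes (red, 642), kept sites (grey, 36440), sites lost in K20R only (dark blue, 1573) and sites lost in WT only (light blue, 97), with 95% Wilson intervals as black lines. Lost sites stood highest above kept sites for repeats (53.4% against 24.9%) and repeat family B (23.4% against 3.39%) and below them for the CTCF motif (64.2% against 86.5%).

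Of the 642 lost sites, 150 were copies of a single repeat family. Among all sites shared by the 4 day 0 lists whose motif match lay in a repeat, 58-base windows around the match were grouped by sequence without regard to their fate, which placed 3970 sites in family A and 2151 in family B at an identity of at least 70% to the consensus. Family B held 150 of the 642 lost sites (23.4%) and 1234 of the kept sites (3.39%), a difference of 20.0 points (95% Newcombe interval 16.9 to 23.4). The difference was 9.09 points with lists of equal length (interval 6.25 to 12.8) and 12.7 points with a stricter q (interval 9.98 to 15.8). Family A held 38 lost sites (5.92%) and 9.42% of the kept sites, a difference of -3.50 points (interval -5.11 to -1.38). Of the sites lost in K20R only, 13.4% were family B copies, 9.95 points fewer than among the lost sites (interval 6.37 to 13.7), and of those lost in WT only 18.6%, where the interval of the difference (-4.60 to 12.1) held 0. Read the other way, 6.97% of all family B copies shared at day 0 were lost in both genotypes, against 0.957% of family A copies and 1.19% of sites without a match in a repeat. Family B was also weaker at day 0, with a median of the mean percentile of 41.9 in kept copies against 65.2 in kept copies of family A. The families were not compared within bands of strength, so the part of strength in these shares was not tested. Lost copies of family B were closer to the consensus, with a median identity of 91.4% against 87.9% in kept copies. The lost copies lay in introns (90 of 150) and between genes (58), and 2 lay in exons.

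The families were defined after values of these sites had been seen, so the shares are descriptions. The share of family B fell with each further day 4 list that held a peak, from 23.4% at no list through 18.3%, 14.2% and 9.48% to 3.39% at all 4. The share of family A lay between 5.92% and 9.42% over the same steps.

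**Figure D3:**
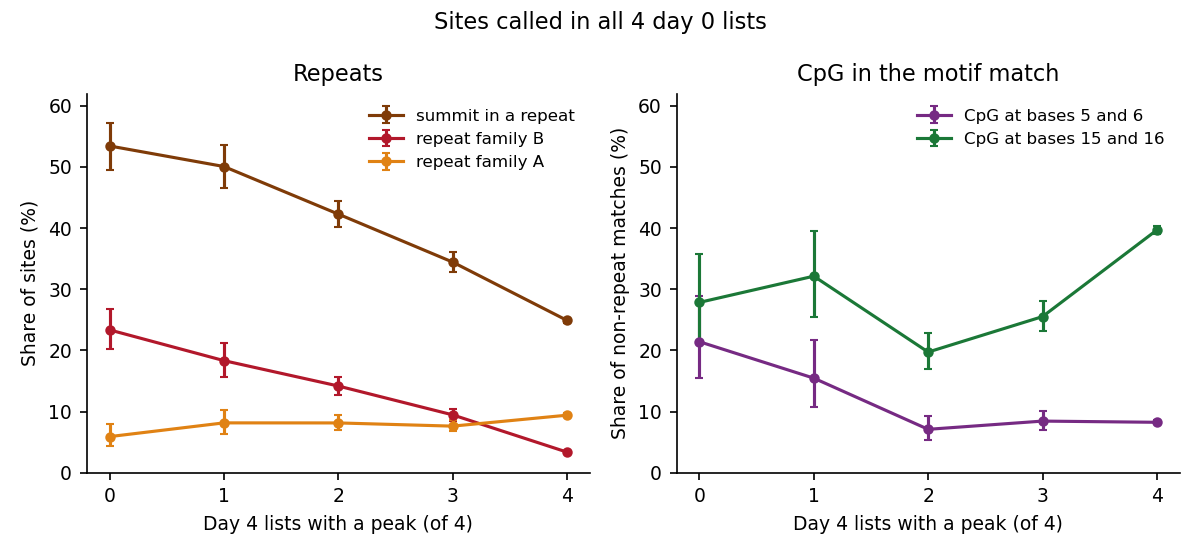
Sites called in all 4 day 0 lists, by the number of day 4 lists with a peak (x axis, 0 being the sites lost in both genotypes), with 95% Wilson intervals. Left, share of sites (y axis, %) with the summit in a repeat (brown) and in families A (orange) and B (red); right, share of motif matches outside repeats (y axis, %) with a CpG at bases 5 and 6 (purple) or 15 and 16 (green). Family B fell from 23.4% to 3.39% and the CpG at bases 5 and 6 from 21.4% to 8.26%.

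Within family B, the share of copies that were lost ranged from 0.446% to 20.4% between frequent versions of the motif match. The 6 versions of the 18-base match that were among the 3 most frequent of lost copies, kept copies or copies lost in K20R only are named B1 to B6 by how many lost copies held them, and the 2 most often and the 1 least often lost are given here. Since fate took part in choosing the versions, a spread between them was partly fixed by that choice.
B1: ACACCAGAAGAGGGCATC
B2: ACACCAGAAGAGGGCGTC
B5: ACTCCAGAAGAGGGCGCC
Version B1 was present in 225 family B copies shared at day 0, of which 46 (20.4%, 95% Wilson interval 15.7 to 26.2) were lost in both genotypes and 58 (25.8%) were kept. Version B2 was present in 178 copies, of which 31 (17.4%, interval 12.5 to 23.7) were lost and 63 (35.4%) kept. B1 was the match of 30.7% and B2 of 20.7% of the 150 lost copies. Version B5 was present in 224 copies, of which 1 (0.446%, interval 0.0788 to 2.48) was lost and 202 (90.2%) were kept. The lost copy, nearest to D930016D06Rik and not shown above, was among the strongest lost copies of family B, with a mean day 0 percentile of 42.5. Version B5 also had a higher motif score, 15.6 against 11.9 for B1 and 13.1 for B2, and its copies were stronger at day 0, with a median of the mean percentile of 38.0 against 23.9 and 25.6. The versions were also compared within bands of strength. Below the 20th percentile, 25 of 81 B1 copies, 25 of 56 B2 copies and 0 of 17 B5 copies were lost, where 0 of 17 allows a share of up to 18.4% (upper Wilson bound). From 20 to 30, 16 of 68 B1 copies, 5 of 57 B2 copies and 0 of 46 B5 copies were lost, the last allowing up to 7.71%, which lies within the interval of B2 (3.81 to 18.9) and below that of B1 (15.0 to 34.9). From 30 to 50, 5 of 60 B1 copies, 1 of 52 B2 copies (1.92%) and 1 of 113 B5 copies (0.885%) were lost, with overlapping intervals. No B1, B2 or B5 copy at or above the 50th percentile was lost. Near-identical copies share sequence, so reads could be assigned to the wrong copy, although the authors kept only reads of high mapping quality.

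**Figure D4:**
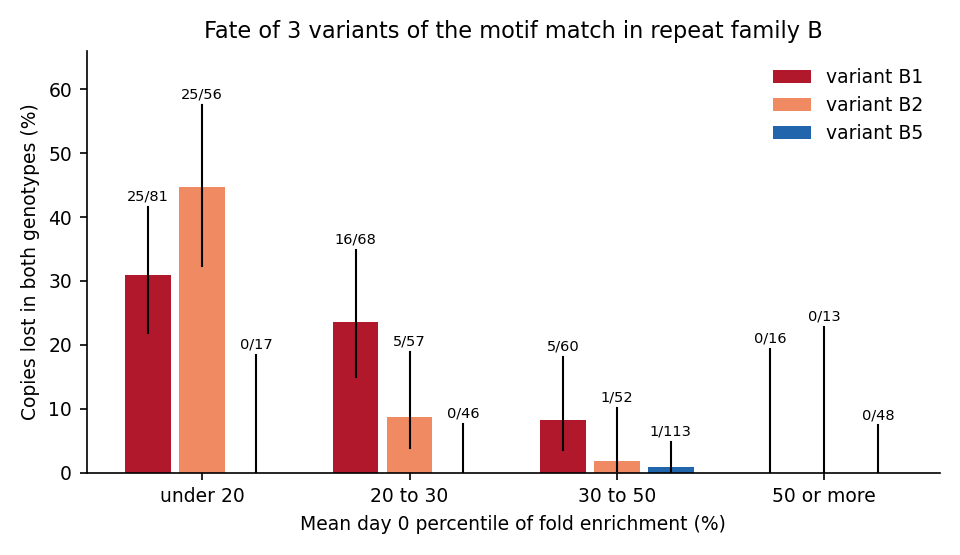
Share of family B copies lost in both genotypes (y axis, %) by mean day 0 percentile of fold enrichment (x axis) for match versions B1 (red), B2 (orange) and B5 (blue), with 95% Wilson intervals and the number of lost copies over all copies shared at day 0. B1 and B2 were lost most often below the 20th percentile (25 of 81 and 25 of 56), while 1 of 224 B5 copies was lost over all bands.

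The CTCF motif itself was less frequent at lost sites. A match that 5% of sequences 1 kb away passed lay within 100 bp of the summit at 412 lost sites (64.2%, 95% Wilson interval 60.4 to 67.8) and at 86.5% of kept sites, a difference of -22.3 points (95% Newcombe interval -26.1 to -18.7). At the threshold that 1% of shifted sequences passed, the shares were 31.0% and 63.8%. Where a match was present, its median score was 12.5 at lost and 14.9 at kept sites, and it lay a median of 21 and 14 bp from the summit. The lower share was seen outside repeats, where 47.5% of 299 lost sites and 84.2% of kept sites held a match, and in repeats, where 78.7% of 343 and 93.6% did. Below the 20th percentile of day 0 strength the shares of 66.96% and 65.5% differed by 1.41 points, with an interval (-7.13 to 9.90) that held 0. From 20 to 30 they were 64.5% and 74.3%, and from 30 to 50 60.9% and 80.8%, so the gap was found among the stronger lost sites. Of the sites lost in K20R only, 71.2% held a match, 7.03 points more than among the lost sites (interval of lost minus K20R only -11.4 to -2.75). At the stricter threshold that difference was -4.35 points and its interval (-8.55 to 0.00423) held 0.

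Of 4 short motifs of other stem cell and lineage factors, 2 had shares at lost and kept sites whose difference left out 0. They were searched on both strands within 100 bp of the summit, as exact letters. TGCAAAT, part of the octamer bound by Oct4, was found at 2.34% of lost and 2.93% of kept sites, and AAGGTCA, a motif of orphan nuclear receptors such as Esrrb, at 2.80% and 2.59%. The letters AGATAAG, which Gata4 and its relatives bind, were found at 4 lost sites (0.623%) and at 1.61% of kept sites, a difference of -0.988 points (95% Newcombe interval -1.39 to -0.0120). GGGTGTG, bound by Klf factors, was found at 43 lost sites (6.70%) and at 4.05% of kept sites, a difference of 2.65 points (interval 0.950 to 4.86). Against sites lost in K20R only, both intervals held 0, at 1.99 points for GGGTGTG (-0.0550 to 4.39) and -1.09 for AGATAAG (-1.95 to 0.0121). Against sites lost in WT only, that of GGGTGTG held 0 and that of AGATAAG (-8.09 to -0.216) did not. The motifs were not compared within bands of strength. These are counts of letters and say nothing of binding by those factors.

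Outside repeats, a CpG at 1 position of the match was more frequent in lost than in kept sites. Of the lost sites with a match, 39.1% held at least 1 CpG in it, against 44.5% of the kept sites, a difference of -5.40 points (95% Newcombe interval -10.03 to -0.580). Without the first K20R day 4 library that difference was -3.86 points and its interval held 0, as it did with lists of equal length (-3.63 points, interval -9.93 to 2.93). The direction differed between bands of strength without a steady trend. The difference was -16.2 points (interval -26.7 to -5.16) below the 20th percentile and 8.67 points (interval 0.472 to 17.01) from 20 to 30. From 30 to 50 it was -1.15 points, with an interval (-9.71 to 8.83) that held 0. Against sites lost in K20R only the difference was 13.2 points (interval 7.89 to 18.6). Split by position, lost and kept sites differed in opposite directions. Among matches outside repeats, the CpG at bases 5 and 6 was present in 30 of 140 lost sites (21.4%, 95% Wilson interval 15.4 to 28.9), in 8.26% of 21794 kept sites and in 5.48% of 566 sites lost in K20R only. The lost sites exceeded the kept sites by 13.2 points (interval 7.17 to 20.7) and the sites lost in K20R only by 15.95 points (interval 9.58 to 23.6). Of the 18 matches outside repeats at sites lost in WT only, 4 (22.2%) held it, a difference of -0.794 points whose interval (-24.6 to 14.4) held 0. The CpG at bases 15 and 16, the more frequent of these positions, was present in 27.9% of lost and 39.7% of kept sites, a difference of -11.8 points (interval -18.6 to -3.87). Below the 20th percentile of day 0 strength the CpG at bases 5 and 6 was in 3 of 40 lost and 11.9% of kept matches, a difference of -4.38 points whose interval (-13.6 to 8.94) held 0. From 20 to 30 it was in 13 of 56 lost matches (23.2%) and 8.37% of kept matches, and from 30 to 50 in 11 of 41 (26.8%) and 4.63%. At or above the 50th percentile it was in 3 of 3 lost matches and in 8.89% of kept matches. The position was singled out after its values had been seen.

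The 30 lost sites with this CpG lay mostly inside genes. There were 6 in exons and 17 in introns, so 7 (23.3%) were intergenic, against 46.1% of the 1800 kept sites of the same kind. Their summits held a median of 5 CpG dinucleotides in 201 bp, against 8 at the kept sites, and 7 of the 30 (23.3%) lay within 3 kb of a start site, against 51% of the kept sites. Another kept CTCF site lay within 10 kb of 21 of them (70%, 95% Wilson interval 52.1 to 83.3), against 49.3% of the kept sites. The kept sites of this kind were much stronger, with a median of the mean day 0 percentile of 82.9 against 28.4. Their median motif score was 13.2 against 10.9. These contrasts were not made within bands of strength, so the part of strength in them was not tested. Besides the exonic sites of Nrp2 and Htra3, the sequences above include an exonic site whose nearest start site was that of Cln8, an endoplasmic reticulum protein, with a mean of 20.75 reads over the 4 day 0 libraries, and an intronic site nearest to Onecut1, a liver and pancreas transcription factor, with a mean of 20 reads. At both, at most 5 reads could have gone uncalled at day 4.

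Kept sites of the same kinds had a peak on both days by definition, so copies that weakened below the calling limit are not among them, and their ranks describe only the copies that remained, such as 1234 of 2151 in family B. The 36440 kept sites were ranked by fold enrichment within each list. The 1234 kept copies of family B had median ranks of 20.7%, 14.7%, 15.0% and 15.1% in the day 0 libraries and of 16.8%, 16.3%, 20.1% and 13.9% in the day 4 libraries, so the days overlapped, with means of 16.3% ± 2.88 and 16.8% ± 2.58 (SD, n = 4 each). Kept copies of family A ranked lower at day 4, with means of 46.6% ± 2.30 at day 0 and 37.0% ± 4.74 at day 4 and no overlap between days. That difference was -13.6 points in WT and -5.61 points in K20R, and the difference between genotypes was not tested. Other kept sites in repeats had means of 39.1% ± 1.48 and 34.3% ± 1.07, also without overlap. Kept sites outside repeats with the CpG at bases 5 and 6 had means of 74.0% ± 3.99 and 73.4% ± 2.95, and the days overlapped. Kept matches outside repeats without it ranked higher at day 4, with means of 56.4% ± 0.900 and 59.4% ± 0.282 and no overlap. Ranks are relative among kept sites, so a rise of 1 kind goes with a fall of others. Family B copies that kept their peak stood low on both days. No test was run, since the calls of both days chose lost and kept sites alike.

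**Figure D5:**
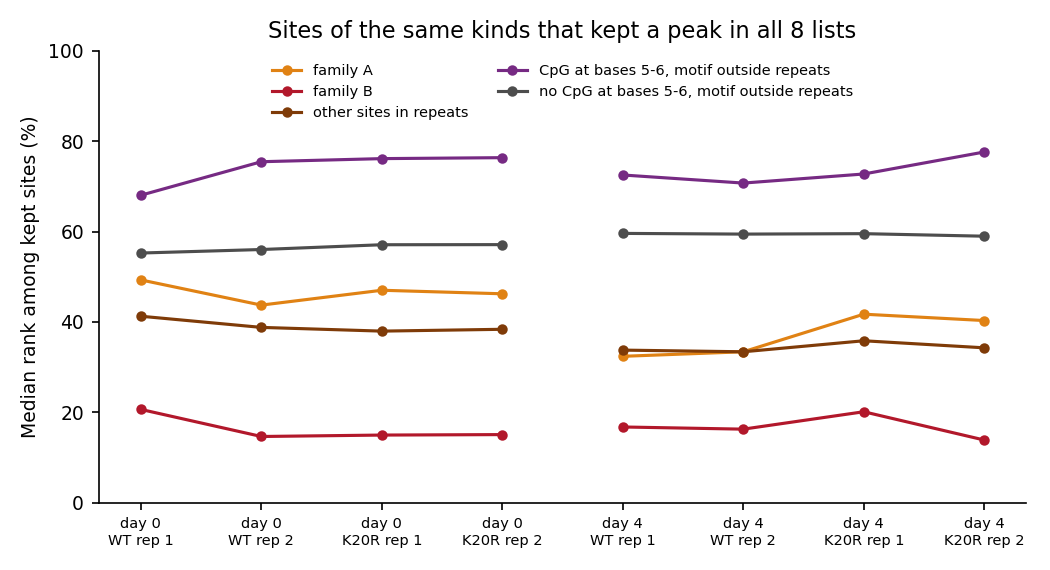
Median rank of fold enrichment among the 36440 kept sites (y axis, %) in each of the 8 CTCF libraries (x axis) for kept sites of repeat families A and B, other kept sites in repeats, and kept sites with a motif match outside repeats with or without a CpG at bases 5 and 6, with lines joining the libraries of a day. Family A fell from a mean of 46.6% at day 0 to 37.0% at day 4, while family B stayed between 13.9% and 20.7% in all libraries.

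Lost sites were spread over introns, exons and intergenic regions much like kept sites, but weak lost sites lay near start sites less often than weak kept sites. Of the 642, 318 (49.5%) lay in introns, 268 (41.7%) between genes and 56 (8.72%) in exons, and none of these shares differed from kept sites by an interval that excluded 0. The summit was within 3 kb of a start site at 131 lost sites (20.4%) and 22.95% of kept sites, a difference of -2.55 points (95% Newcombe interval -5.52 to 0.769). It ran from -4.24 points without the second WT day 0 library to 0.0458 without the second K20R day 4 library, and its interval left out 0 without the second WT day 0 library, without the second WT day 4 library (-2.86) and without the first K20R day 4 library (-3.62), as well as with lists of equal length (-5.70, interval -9.28 to -1.45). Within 1 kb the shares were 7.48% and 11.8%, a difference of -4.28 points (interval -6.10 to -1.96). Among weak sites the gap was wider, with 25.2% of lost and 42.4% of kept sites within 3 kb below the 20th percentile (a difference of -17.2 points, interval -25.4 to -8.66) and 17.7% and 31.5% from 20 to 30 (-13.7 points, interval -18.8 to -7.88). From 30 to 50 the shares were 18.6% and 22.1%, so the wider gap went with higher shares at weak kept sites. Those sites also had to hold a peak in every day 4 list, and the part of that choice in the gap was not tested. Another kept CTCF site lay within 10 kb of 45.2% of lost and 46.4% of kept sites, a difference of -1.22 points (interval -5.06 to 2.68), which was -5.05 points without the second WT day 0 library and -4.03 without the second WT day 4 library, both with intervals that left out 0, as did -6.45 points with lists of equal length (interval -11.3 to -1.33). Within bands of strength the differences were 5.37 points below the 20th percentile, 5.62 from 20 to 30 and 0.579 from 30 to 50. For the 8 lost sites at or above the 50th it was -11.0, and all 4 intervals held 0. The share was 39.7% at sites lost in K20R only, 5.44 points below the lost sites (interval 0.914 to 9.98). At sites lost in WT only it was 28.9%, 16.3 points below (interval 5.90 to 25.3). The median distance from a lost summit to the nearest day 4 peak of any list was 7179.5 bp, and 34 lost sites had such a peak within 1 kb.

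H3K27ac marked a minority of lost and kept sites at day 4, and it marked weak lost sites less often than weak kept sites. In WT, 56 lost sites (8.72%) and 11.7% of kept sites overlapped a peak, a difference of -2.94 points (95% Newcombe interval -4.92 to -0.486). In K20R, 86 lost sites (13.4%) and 15.2% of kept sites did, a difference of -1.82 points (interval -4.27 to 1.05). Without the second K20R day 4 library the WT difference was -1.85 points with an interval that held 0, and without the second WT day 0 library the K20R difference was -3.28 points with one that left out 0. With lists of equal length the WT difference was -2.74 points and its interval (-5.33 to 0.696) held 0. Below the 20th percentile of day 0 strength, 10.4% of lost and 27.3% of kept sites were marked in WT, a difference of -16.9 points (interval -23.7 to -9.87), and 16.96% and 31.1% in K20R, a difference of -14.1 points (interval -21.6 to -6.41). From 20 to 30 the differences were -7.48 points in WT (interval -11.2 to -2.76) and -5.04 points in K20R (interval -9.32 to 0.145), and from 30 to 50 both intervals held 0. Weak kept sites, unlike lost sites, had to hold a peak at day 4, the day of the mark. The part of that choice in the gap was not tested. Both overall differences depended on the width of sites, and with each peak cut to the narrower of the windows tried around its summit the differences were -0.0820 points in WT and 1.71 points in K20R, with intervals that held 0. Among sites without a motif match the gap was larger, with 7.39% of 230 lost and 19.05% of kept sites marked in WT and 11.7% and 22.1% in K20R. Of the sites lost in K20R only, 7.44% were marked in WT and 9.22% in K20R. The sites lost in both genotypes exceeded them by 1.28 points in WT (interval -1.11 to 4.00) and by 4.18 points in K20R (interval 1.32 to 7.33). Against sites lost in WT only, both intervals held 0.

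At promoters, 24 lost sites had their summit within 1 kb of the start site of a protein-coding gene. Of these, 7 overlapped H3K27ac in WT and 10 in K20R at day 4, 12 held a motif match and 6 lay in repeats. The strongest was 204 bp from a start site of Dact2, a modulator of Wnt and Nodal signals, and held 41 and 17 reads in WT and 16 and 20 reads in K20R at day 0. The next were at Erg, an ETS factor of endothelial and blood cells (18, 18, 14 and 12 reads in the same order), at Gpr39, a zinc-sensing receptor (20, 9, 19 and 15 reads), and at Me2, a mitochondrial malic enzyme (19, 14, 16 and 10 reads). The site 520 bp from a start site of Sox11, a transcription factor of neural progenitors, held 11, 10, 13 and 11 reads and overlapped H3K27ac in both genotypes, as did those at Me2, Zmiz1 and Plekha4. The remaining sites of the 10 strongest were at Gm10198, Syne1 and Pde4a, with mean read numbers of 13.75 to 14.75. These promoter sites were weaker than the 10 strongest lost sites, and the lowest, in Plekha4 and Sox11, held a mean of 11.25 reads.

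Genes that guard the naive state had lost sites nearby. Of 18 listed genes of naive and general pluripotency, 7 had a lost site within 50 kb of a start site, namely Sox2, Klf2, Klf5, Esrrb, Zfp42, Dppa3 and Prdm14. They amounted to 7 of the 99 sites shared by all day 0 lists in that reach (7.07%, 95% Wilson interval 3.47 to 13.9), beside 1.48% over all such sites. Of the 7 formative genes 1 (Dnmt3b, a de novo DNA methyltransferase) had a lost site, as did 1 of the 11 primitive streak and mesoderm genes (Eomes, a T-box factor), while none of the 10 cardiac, 5 neural and 5 endoderm genes did. Of day 0 sites in reach, 1 of 24 (4.17%) was lost for the formative and 1 of 52 (1.92%) for the mesoderm genes. The cardiac genes had 37 day 0 sites in reach, and 0 of 37 allows a share of up to 9.41%. The neural genes had 16 and the endoderm genes 10, allowing up to 19.4% and 27.8%. The intervals of these other lists all held the 1.48% over all sites, and all overlapped that of the pluripotency list. They cover counting error only and do not serve as a test of any list, the pluripotency list included. The pluripotency count was sensitive to thresholds, with 4 genes at a stricter peak threshold, 1 gene with lists of equal length and 3 genes within 25 kb. No test was run on the lists, which were chosen with results of these data known.

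The site near Prdm14, a transcriptional repressor that guards the naive state, was the strongest of the 7, with 32 and 17 reads in WT and 28 and 27 reads in K20R at day 0. The site in an intron of Esrrb, an orphan nuclear receptor, held 16, 9, 17 and 24 reads in the same order, and that near Sox2, a partner of Oct4, held 24, 8, 14 and 14 reads. The site near Zfp42, a marker of naive cells, held 7, 12, 13 and 13 reads. These 4 were family B copies with the sequences shown above, and so was the site at Dnmt3b, in an intron of Commd7, with 13, 10, 10 and 12 reads. The site near Eomes, a motif match in another repeat, held 25, 14, 12 and 7 reads. The sites near Klf2, Klf5 and Dppa3 held no motif match and no repeat, with 13, 8, 17 and 20 reads at Klf2, 11, 12, 10 and 11 reads at Klf5, and 17, 12, 11 and 14 reads at Dppa3. None of the 9 sites near listed genes overlapped H3K27ac in either genotype at day 4. In these bulk libraries, a site unbound in most cells and a site bound less in every cell cannot be told apart.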

How the data were processed

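CTCF ChIP-seq peak lists (2 libraries per genotype and day) and H3K27ac lists (1 per genotype at day 4) were analysed, and the inputs were not analysed here. Per the labels and the study's methods, the authors trimmed reads with Trim Galore, aligned them to mm10 with Bowtie2, removed duplicates, reads of low mapping quality and blacklisted regions, subsampled the CTCF libraries to equal depth and called peaks per library with MACS2. The deposited values were fold enrichment, a ratio of the pileup over local background, and -log10 p and q, and the deposited score column was not used. Read numbers at summits were recovered from fold enrichment and -log10 p, within 0.01 for values of -log10 p under 200.

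Peaks overlapping by 1 bp or more were merged. An 18-base motif matrix was learned from 1000 kept sites, of which 700 sequences entered it, and a match needed a score that 5% of sequences 1 kb away reached. Repeats were lower-case bases of GRCm38. Shares were compared with 95% Wilson and Newcombe intervals, which cover counting error only. The permutation test planned for day 0 strength between genotypes could not pass a threshold with 2 libraries a group and is not used. Named sites were the 10 strongest, the 10 strongest within 1 kb of a protein-coding start site, and every site within 50 kb of a listed gene. Where other sites are named, they were chosen after their values were seen. Members and lists were chosen with earlier results of these data known. Scripts ran under scipy 1.17.1, pysam 0.24.0, pandas 2.3.3, numpy 2.4.6 and Python 3.11.15 and were tested on simulated data. Alternatives were a stricter q, lists of equal length, merging at an overlap of at least 100 bp, wider and narrower fixed windows around summits, autosomes alone and each library left out.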

Additional observations from a re-analysis of the deposited data

How the results depend on the processing

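The repeat difference (28.5 points) lay between 17.99 and 33.6 and the motif difference (-22.3 points) between -32.8 and -17.1 over all alternatives, with intervals that left out 0. The same held for family B (9.09 to 25.7 points) and the CpG at bases 5 and 6 (9.21 to 16.5 points), whose alternatives were chosen after seeing the data. With lists of equal length there were 361 lost sites, the intervals of motif CpG (-3.63 points) and WT H3K27ac (-2.74) came to hold 0, those of promoter (-5.70) and near a kept site (-6.45) came to leave it out, and 1 pluripotency gene was left. Keeping peaks whose -log10 q reached 5, the promoter (-3.90) and near kept site (-4.07) intervals also left out 0, with 4 pluripotency genes, and within 25 kb there were 3. Promoters within 1 kb gave -4.28 points, leaving out 0, and the stricter motif threshold a motif CpG difference of -3.59, holding 0. The wider windows gave -4.74 (motif CpG) and -1.63 (WT H3K27ac) points, and the narrower ones -0.0820 in WT and 1.71 in K20R for H3K27ac, all holding 0. The causes were not tested.

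Leaving out each library gave 661 to 1219 lost sites and differences of -7.60 to -3.86 (motif CpG), -4.24 to 0.0458 (promoter), -4.26 to -1.85 (WT H3K27ac), -3.28 to -0.358 (K20R H3K27ac) and -5.05 to -0.780 points (near a kept site), day 0 strength differences of -20.0 to -0.0789 and 7 to 9 pluripotency genes. With the replicate block the strength difference was again -12.0 points, with no test. Whether replicate numbers pair the libraries is not given in the sources used here. Equal subsampling limits what could be called, and sites with fewer than 5 reads were in no list.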

Other observations

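The lost sites were spread over the genome. Their share of sites shared by all day 0 lists ran over the autosomes from 0.998% on chromosome 7 to 1.84% on chromosome 1 and was 1.67% on chromosome X, and of 7 such sites on chromosome Y none was lost. Of the 642 sites, 20 lay within 10 kb and 95 within 100 kb of another lost site, and the median distance to the nearest other lost site was 830336 bp.

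Sites lost in either genotype lay in repeats more often than sites gained. In WT 47.7% of 2917 lost and 20.4% of 2098 gained sites had their summit in a repeat, and in K20R 49.1% of 4270 lost and 25.8% of 462 gained sites did. Without the sites lost in both genotypes, the shares of the losses were 46.1% in WT and 48.4% in K20R. These counts use the same day 0 and day 4 lists as the choice of the lost sites.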
